A study of Mus musculus with 27 samples.

Results

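The sites described here are places in mouse embryonic stem cells (ESC) that carried H3K4me3 without H3K27me3 in the wild type and that were also under an H3K27me3 peak when the Utx gene was knocked out. They were chosen from the deposited peak lists as H3K4me3 peaks of wild-type (WT) ESC that overlapped, by at least 1 bp, no H3K27me3 peak of WT ESC and at least 1 H3K27me3 peak of Utx-knockout (Utx-KO) ESC. The rule picked 3388 of 19468 H3K4me3 peaks (17.4%), called gained sites below. Of the other H3K4me3 peaks, 14716 met H3K27me3 in neither ESC list (H3K4me3-only sites), 1331 met it in both (doubly marked sites) and 33 met it in WT ESC only. Of all WT ESC H3K4me3 peaks, 7.01% met WT and 24.2% met Utx-KO H3K27me3.

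The series holds 27 chromatin immunoprecipitation sequencing (ChIP-seq) samples from male mouse cells, and 19 of them, for H3K27me3, H3K4me3 or UTX, have a peak list. The ESC are of the V6.5 line, with the genotype Utx+/Y (WT) or Utx-/Y (Utx-KO), and none of them were given doxycycline. Mouse embryonic fibroblasts (MEF) of the V19-OSKM strain, again Utx+/Y or Utx-/Y, were taken without and with doxycycline (dox), which in such cells switches on the reprogramming factors Oct4, Sox2, Klf4 and c-Myc. A further state, 2 induced pluripotent stem (iPS) clones labelled aberrant, came from Utx-/Y fibroblasts of the same strain and were profiled without dox. UTX was mapped in WT cells alone: ESC, MEF and MEF with dox. Apart from the 2 clones, every state and mark had 1 library, so no difference between WT and Utx-KO cells has a replicate check and none was tested. The clones are the only replicates. Percentages below carry 95% Wilson intervals, which cover counting over sites only and treat neighbouring sites as independent.

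H3K27me3 is laid down by the Polycomb repressive complex that contains EZH2 and is found at silent developmental genes. UTX, encoded by Utx (Kdm6a) on the X chromosome, removes methyl groups from H3K27 and is also a subunit of an enzyme complex that methylates H3K4. H3K4me3 sits at promoters of active genes, and in ESC many developmental promoters carry it together with H3K27me3, the bivalent state. The files give positions in the mm9 build and no gene names, so sites are named by position, and neither the genes at the sites nor marker genes of the cell types were analysed here.

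The lists behind the rule differed in length. WT ESC had 5679 H3K27me3 peaks covering 6.20 Mb, of which 17.6% had a deposited score of at least 100, and Utx-KO ESC had 36231 peaks covering 79.8 Mb, of which 50.2% reached that score. The deposited score has the form of a -10 log10 probability, although no file states this, and starts at 50. It is used to rank peaks and to set minimum scores within a list. Read depth is unknown, so a missing peak can be a weak or shallowly sequenced signal, and the part of depth in the choice of sites was not tested. The H3K4me3 lists of the ESC were closer, with 19468 peaks over 46.1 Mb in WT and 20133 over 43.3 Mb in Utx-KO cells. With the Utx-KO H3K27me3 list shortened to the WT length by score, 1538 sites met the rule.

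At the gained sites the Utx-KO H3K27me3 covered a median of 74.7% of the H3K4me3 peak (quartiles 40.9% and 100%). The largest group, 1681 sites (49.6%), had H3K27me3 over 1 edge of the H3K4me3 peak. A further 979 (28.9%) lay whole inside 1 H3K27me3 peak, 643 (19.0%) had separate H3K27me3 peaks over both edges, and in 85 (2.51%) the H3K27me3 peak lay inside the H3K4me3 peak. The H3K4me3 centre itself was covered at 2104 sites (62.1%, interval 60.5% to 63.7%). These values describe the peaks that chose the sites. The strongest Utx-KO H3K27me3 peak at a gained site had a median score of 268 (quartiles 128 and 542) and a median width of 2787 bp, against a score of 693 and a width of 4892 bp at doubly marked sites. In all, 3980 of the 36231 Utx-KO H3K27me3 peaks (11.0%) met a gained site.

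Averaged over the sites, H3K27me3 in Utx-KO ESC was highest beside the H3K4me3 peak and not at its centre. It covered 62.1% of gained sites at the centre, 70.0% at 1 kb, 53.7% at 2 kb and 19.3% at 5 kb. H3K4me3 of Utx-KO ESC covered 87.7% at the centre and 33.5% at 1 kb. Doubly marked sites had the same dip, with 83.3% at the centre and 87.9% at 1 kb in Utx-KO ESC. In WT ESC their H3K27me3 covered 35.8% at the centre and 43.1% at 1 kb. At gained sites WT H3K27me3 was 0 at the centre by the rule and reached 4.0% at 2 kb.

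**Figure D1:**
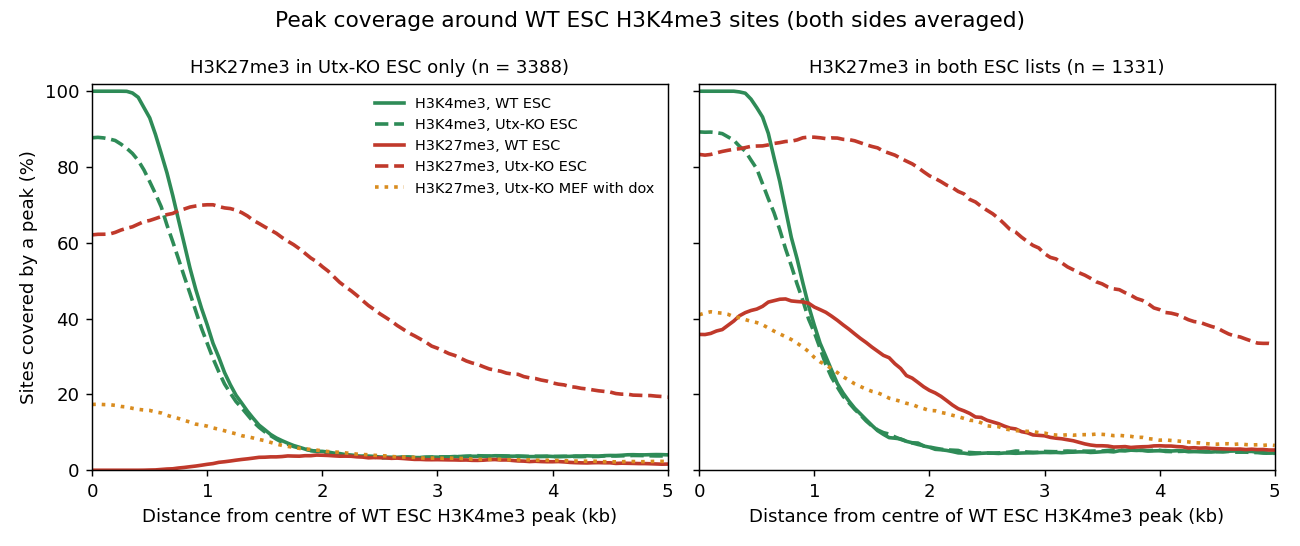
Share of sites covered by a peak (%, vertical) against distance from the centre of the WT ESC H3K4me3 peak (kb, both sides averaged), for 3388 gained sites (left) and 1331 doubly marked sites (right), with 1 line per peak list. At gained sites the Utx-KO ESC H3K27me3 line goes from 62.1% at the centre to 70.0% at 1 kb, while the WT ESC H3K27me3 line stays at or below 4.0%.

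Some gained sites lay next to H3K27me3 that WT ESC already had. A WT H3K27me3 peak lay within 1000 bp of 319 gained sites (9.42%, 8.48% to 10.4%) and within 10000 bp of 792 (23.4%). Of H3K4me3-only sites, 24 (0.163%) and 448 (3.04%) did. The median distance to WT H3K27me3 was 78.5 kb for gained and 170 kb for H3K4me3-only sites. Both H3K27me3 lists are part of the rule. Of the 1364 H3K4me3 peaks with WT H3K27me3, 1331 also met Utx-KO H3K27me3, and H3K4me3-only sites are by definition outside it. The contrast in nearness is thus in part set by the choice of sites. At 465 gained sites (13.7%, 12.6% to 14.9%) the same Utx-KO H3K27me3 peak also overlapped a WT H3K27me3 peak, at a median distance of 686 bp from the site. At the other 2923 sites (86.3%) it overlapped none, and the nearest WT peak was a median of 112 kb away. The share with such a shared peak was 1.30%, 5.19%, 11.7% and 36.7% from the lowest to the highest of 4 equal groups of sites by score of the Utx-KO H3K27me3 peak. Shared Utx-KO peaks were also wider, with a median of 5994 bp against 2529 bp at the other sites. Score, width and overlap all come from the lists of the rule, and the part of width in the trend was not tested. The next H3K4me3 peak on either side was itself a gained site for 1583 gained sites (46.7%) and for 3853 H3K4me3-only sites (26.2%).

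The 10 gained sites with the highest Utx-KO H3K27me3 scores were all of this adjacent kind: in 10 of 10 the H3K27me3 peak also overlapped WT H3K27me3, and 7 lay within 1000 bp of it. They were picked by that score, with which the share of shared peaks rose. Of these sites, 7 had H3K4me3 in Utx-KO ESC, 9 had it in both iPS clones, 5 had H3K27me3 in a fibroblast list and 0 had UTX. First was chr5:75551424-75553376, where the last 283 bp of a 12575 bp H3K27me3 peak (score 3203) ran onto the site and WT H3K27me3 lay 107 bp away. That site had H3K4me3 in all 8 lists, with scores of 248 in WT ESC, 328 in Utx-KO ESC, 946 in MEF, 3100 in Utx-KO MEF, 1410 in MEF and 3100 in Utx-KO MEF when dox was given, and 1121 and 3100 in the clones. It had no fibroblast H3K27me3. At chr11:21900101-21902841, covered over 95.6% of its length, WT H3K27me3 was 20 bp away, H3K4me3 was again in 8 lists, and Utx-KO MEF had H3K27me3 at a score of 149. A different pattern was seen at chr15:76004170-76005817, whole inside an 11148 bp H3K27me3 peak, which had H3K4me3 in WT ESC (87.4) and iPS clone 2 (69.9) only. At chr6:52255687-52256701 H3K4me3 was absent from the Utx-KO ESC list, and H3K27me3 was present in MEF (137), Utx-KO MEF (173) and Utx-KO MEF with dox (145).

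The rule's edges were narrow. The shortest overlaps with Utx-KO H3K27me3 were 2 bp at chr12:112906836-112911063, 2 bp at chr6:29160933-29162869 and 4 bp at chr7:107005815-107008108, and 65 gained sites (1.92%) overlapped it by under 100 bp. The gained sites closest to WT H3K27me3 were 3 bp from it at chr5:106886369-106889049, 4 bp at chr7:151163340-151165586 and 6 bp at chr5:52956332-52957822. Just outside, chr4:123649638-123650401 missed Utx-KO H3K27me3 by 1 bp and chr4:150253251-150254539 by 3 bp, and 72 H3K4me3-only sites (0.489%) lay within 100 bp of it. On the other edge, chr11:21896073-21897474 overlapped WT H3K27me3 by 2 bp and so counted as doubly marked, under the same 8389 bp Utx-KO peak as its gained neighbour at chr11:21900101-21902841.

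Gained sites were narrow and of modest score. Their H3K4me3 peaks in WT ESC had a median width of 1744.5 bp (quartiles 1358 and 2283, range 517 to 8763 bp), H3K4me3-only sites 2264 bp (1546 and 3114) and doubly marked sites 1774 bp (1407 and 2279). The median H3K4me3 score was 211, 655 and 205 in the same order. Peaks of at least 4000 bp made up 2.36% of gained sites (80), 11.1% of H3K4me3-only sites (1639) and 2.48% of doubly marked sites (33). In width and score the gained sites thus lay close to the doubly marked sites and below the H3K4me3-only sites. The difference in median width from H3K4me3-only sites was -519.5 bp.

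**Figure D2:**
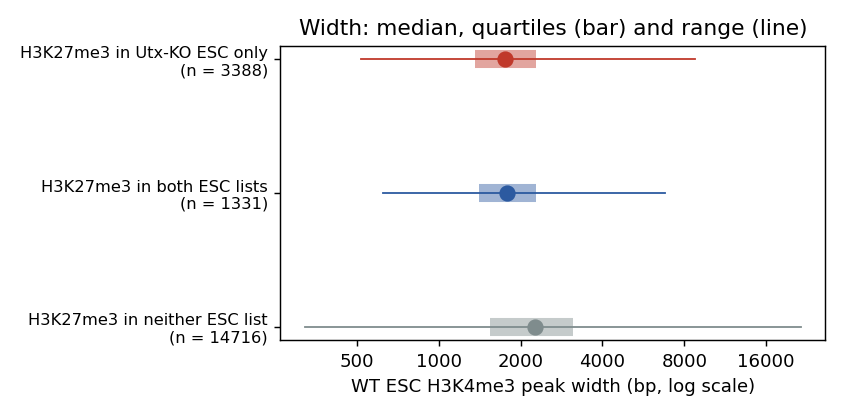
Width of WT ESC H3K4me3 peaks (bp, log scale) for gained, doubly marked and H3K4me3-only sites, with the median as a point, the quartiles as a bar and the range as a line. The medians are 1744.5, 1774 and 2264 bp.

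A few gained sites were wide. The widest, chr2:115885101-115893863, spanned 8763 bp in WT ESC and 7701 bp in Utx-KO ESC. It met H3K27me3 through a 774 bp peak of score 52.3 inside it, carried UTX (119) and had H3K4me3 in all 8 lists and no fibroblast H3K27me3. Also wide were chr13:112274342-112281933 (7592 bp), chr13:63662851-63670096 (7246 bp) and chr1:77506769-77513586 (6818 bp), in which H3K27me3 reached 7.26%, 6.69% and 7.44% of the length. The exception among the 5 widest was chr13:40823093-40830293 (7201 bp), 98.4% of which lay under H3K27me3 peaks, the stronger of them 15687 bp wide with a score of 1299. That site had H3K27me3 in MEF (581), Utx-KO MEF (526) and Utx-KO MEF with dox (119). Its H3K4me3 scores there were 103, 148 and 3100, and it was 3100 in MEF with dox, where H3K27me3 was not listed.

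H3K4me3 was found again in Utx-KO ESC at 3011 gained sites (88.9%, 87.8% to 89.9%), where 87.4% of all WT ESC H3K4me3 peaks had a counterpart. The shares were 86.7% (86.1% to 87.2%) at H3K4me3-only and 91.5% (89.9% to 92.9%) at doubly marked sites. The difference of 2.16 percentage points from H3K4me3-only sites changed with the setting. Reweighting the H3K4me3-only sites to the widths of the gained sites made it 7.49, and to widths and scores together 7.05. Keeping only peaks scoring at least 100 turned it to -1.58, but this also changed which sites were picked, leaving 2768 gained sites. All WT ESC H3K4me3 peaks were also split by width into 4 classes of about equal size. In the narrowest (322 to 1478 bp) 71.6% of gained and 53.4% of H3K4me3-only sites had Utx-KO H3K4me3, and in the widest (2918 bp and more) 100% (325 of 325) and 99.6% did. The Utx-KO H3K4me3 peak itself overlapped Utx-KO H3K27me3 at 2905 of the 3011 sites (96.5%), a share that the choice of sites by Utx-KO H3K27me3 largely fixes.

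Where 1 WT peak met 1 Utx-KO peak, the H3K4me3 of gained sites was slightly narrower without Utx. The median width was 1817 bp in WT and 1676.5 bp in Utx-KO ESC over 2868 sites, a median log2 ratio of -0.11 (quartiles -0.32 and 0.08), and 66.1% were narrower. H3K4me3-only sites had a ratio of -0.08 with 64.3% narrower (n = 11870), and doubly marked sites -0.10 with 63.1% (n = 1133). The small shift was thus present in all of these classes. The Utx-KO peak was at least 1.5-fold narrower at 8.89% of gained, 6.42% of H3K4me3-only and 10.4% of doubly marked sites. Median H3K4me3 scores were higher in the Utx-KO list in each class, 356 against 244 at gained sites and 1219 against 877 at H3K4me3-only sites. Scores of separate lists are not on a known common scale, so a stronger mark in Utx-KO ESC cannot be read from this.

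The 377 gained sites without H3K4me3 in Utx-KO ESC were weak in WT ESC. Their median width was 1119 bp and their median H3K4me3 score 70.1, against 1834 bp and 244 for the others. H3K27me3 covered a median of 91.0% of them and 72.4% of the others, while its median score was similar, 241 and 272. In 19 (5.04%) a Utx-KO H3K4me3 peak lay within 1000 bp. iPS clone 2 had H3K4me3 at 91.0% of the 377 and at 99.5% of the others, clone 1 at 66.3% and 96.9%, and MEF at 24.9% and 56.9%.

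The best scoring of these was chr2:122463423-122465208 (H3K4me3 score 386 in WT ESC), which had H3K4me3 in MEF with dox (257) and iPS clone 2 (234) and no other list. At chr9:50302216-50305056 (302) the H3K4me3 score was 82.6 in MEF with dox and 427 and 823 in the clones. At chr19:45224490-45226463 (289), 98.6% covered by H3K27me3 peaks of which the strongest had a score of 3100, the H3K4me3 scores were 514 in MEF with dox and 470 and 589 in the clones, and H3K27me3 was listed in MEF (94.97) and Utx-KO MEF with dox (233). Each of these sites had H3K4me3 in dox-treated WT fibroblasts and in at least 1 clone. At chr17:23835816-23837687 (285) H3K4me3 was listed in both dox-treated fibroblast lists (778 and 223) and in both clones. At chr2:30700142-30702249 (271) Utx-KO ESC was the only H3K4me3 list of 8 without the site, which had scores of 976 in MEF, 1850 in Utx-KO MEF, 881 in MEF with dox and 2082 in Utx-KO MEF with dox.

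UTX peaks of WT ESC were found at few gained sites. They overlapped 59 (1.74%, 1.35% to 2.24%), against 6.63% of all WT ESC H3K4me3 peaks, 1221 H3K4me3-only sites (8.30%, 7.86% to 8.75%) and 9 doubly marked sites (0.676%, 0.356% to 1.28%). The difference of -6.56 percentage points from H3K4me3-only sites was -5.59 at matched widths and -6.66 at matched widths and scores. With peaks scoring at least 100, which 26.6% of WT ESC UTX peaks reach, it was -2.37, from shares of 0.217% and 2.59%. In each of the 4 width classes the share was lower at gained sites, from 0.803% against 7.15% in the narrowest to 5.54% against 11.7% in the widest. The fibroblast UTX lists hardly met these sites: MEF at 3 gained sites (0.0885%, all peaks 0.108%) and MEF with dox at 14 (0.413%, all peaks 1.14%).

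The UTX peaks at gained sites had scores of 50.9 to 144 with a median of 66.7, against a median of 80.5 at H3K4me3-only sites. The 59 sites were wider (median 2297 bp) than the other gained sites (1734 bp) and less covered by Utx-KO H3K27me3 (42.7% against 75.1%). Although the sites were chosen for meeting Utx-KO H3K27me3, the UTX peak itself overlapped it at 26 of 59 (44.1%) and did not at 33. Of all WT ESC UTX peaks, 142 of 5076 (2.80%) overlapped Utx-KO H3K27me3, and the choice of sites raises the share at gained sites. H3K4me3 was listed in Utx-KO ESC at 48 of the 59 (81.4%) and at 89.0% of gained sites without UTX.

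The best UTX score, 144, was at chr9:14663528-14665841. There H3K27me3 covered 89.3% of the site in Utx-KO ESC (455) and was listed in MEF (443), Utx-KO MEF (164) and Utx-KO MEF with dox (149). H3K4me3 was listed in WT ESC (216), Utx-KO ESC (228), MEF with dox (346) and the clones (418 and 602). Next after the widest site came chr11:96790181-96791456 (UTX 108), which H3K27me3 reached over 74 bp, chr11:119255941-119258707 (105) and chr8:73388413-73390654 (104). The first of these had no H3K4me3 in Utx-KO ESC. At chr11:119255941-119258707 H3K4me3 was missing from Utx-KO ESC, Utx-KO MEF and both clones and listed in MEF (653) and in both dox-treated lists (3100 each).

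In each fibroblast list H3K27me3 was found at a share of gained sites that lay between those of H3K4me3-only and doubly marked sites. MEF and Utx-KO MEF had it at 433 gained sites each (12.8%, 11.7% to 13.9%), where the shares of all WT ESC H3K4me3 peaks were 4.95% and 4.88%. The shares were 1.11% and 1.03% at H3K4me3-only sites and 27.3% in both lists at doubly marked sites. The equal counts did not come from equal sites: 237 gained sites (54.7% of each list's) had H3K27me3 in both. Of all WT ESC H3K4me3 peaks with H3K27me3 in MEF or in Utx-KO MEF, a similar 55.9% and 56.7% had it in both. With the shortened Utx-KO ESC list the difference from H3K4me3-only sites in MEF was 19.0 in place of 11.7 percentage points.

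With dox the WT and Utx-KO lists went apart. H3K27me3 was listed in MEF with dox at 56 gained sites (1.65%, 1.28% to 2.14%, all peaks 0.801%) and in Utx-KO MEF with dox at 802 (23.7%, 22.3% to 25.1%, all peaks 8.74%). H3K4me3-only sites stood at 0.272% and 1.51%, and doubly marked sites at 4.43% and 50.2%. The WT list with dox held 938 peaks, 2.35% of them scoring at least 100, and the Utx-KO list 4335, 40.6% of them at that score, so the shorter WT list moves with the lower share and its part was not tested. In MEF with dox the difference of 1.38 percentage points from H3K4me3-only sites became -0.00811 with peaks scoring at least 100, where 0 gained sites and 0.00811% of H3K4me3-only sites were listed, so no direction can be read there. In Utx-KO MEF with dox the difference was 22.2, and 33.5 with the shortened Utx-KO ESC list. Of the 433 gained sites with H3K27me3 in Utx-KO MEF, 345 (79.7%, all peaks 81.3%) had it with dox as well. They made up 43.0% of the 802 (all peaks 45.4%). Of the 56 sites of the dox-treated WT list, 37 (66.1%, all peaks 64.1%) were among those 802. These overlaps between lists were thus close to those over all WT ESC H3K4me3 peaks.

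**Figure D3:**
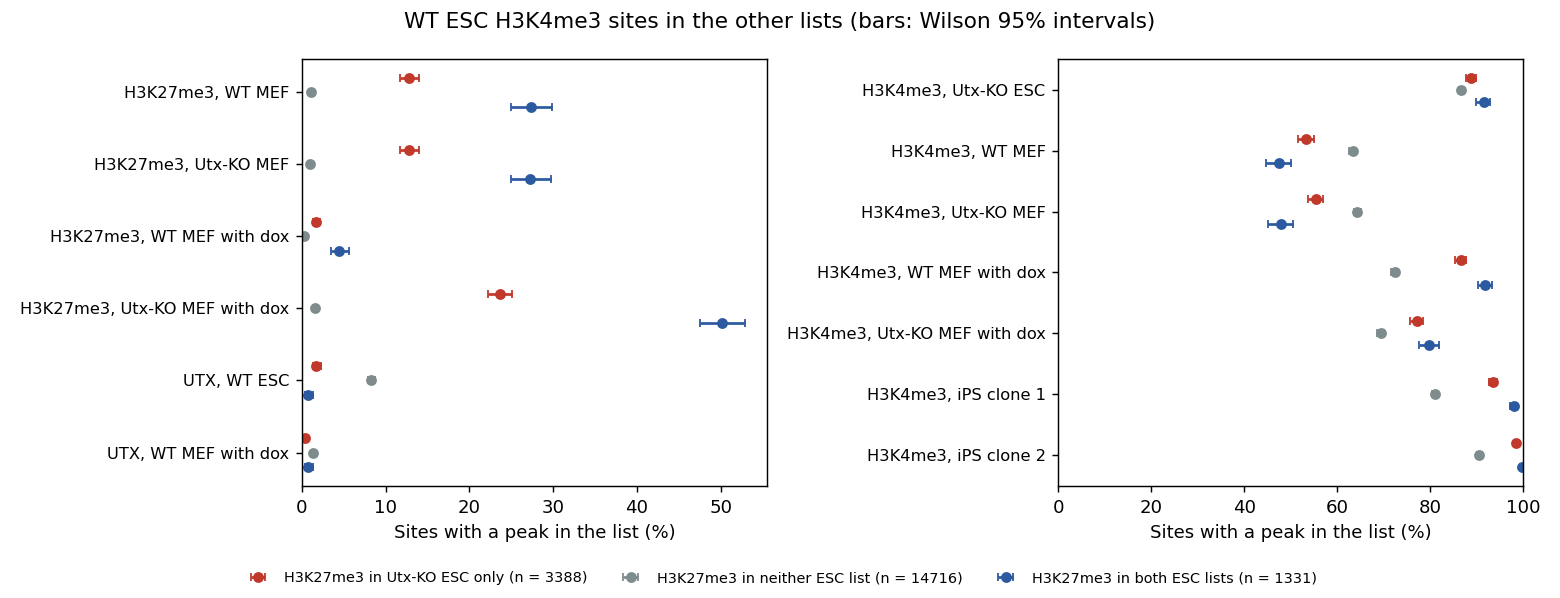
Share of sites with a peak in each list (%, horizontal) for gained (red, n = 3388), H3K4me3-only (grey, n = 14716) and doubly marked sites (blue, n = 1331), with 95% Wilson intervals, for H3K27me3 and UTX (left) and H3K4me3 (right). For H3K27me3 in Utx-KO MEF with dox the points stand at 23.7%, 1.51% and 50.2%.

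Any of the 4 fibroblast lists had H3K27me3 at 982 gained sites (29.0%, 27.5% to 30.5%), 368 H3K4me3-only sites (2.50%) and 730 doubly marked sites (54.8%). Among gained sites 480 were in 1 list, 282 in 2, 200 in 3 and 20 in all 4. The share was higher at sites whose Utx-KO ESC H3K27me3 peak had a higher score. From the lowest (scores 50 to 128) to the highest (542 to 3203) of the 4 score groups it was 4.84%, 7.20%, 12.3% and 26.8% in MEF, 4.84%, 9.33%, 12.9% and 24.1% in Utx-KO MEF, and 8.74%, 16.5%, 23.7% and 45.7% in Utx-KO MEF with dox. The lowest group was also above the 1.11%, 1.03% and 1.51% of the H3K4me3-only sites. Sites whose Utx-KO peak also overlapped WT H3K27me3 had fibroblast H3K27me3 at 27.5% in MEF and 41.9% in Utx-KO MEF with dox, and those without such a shared peak at 10.4% and 20.8%.

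**Figure D4:**
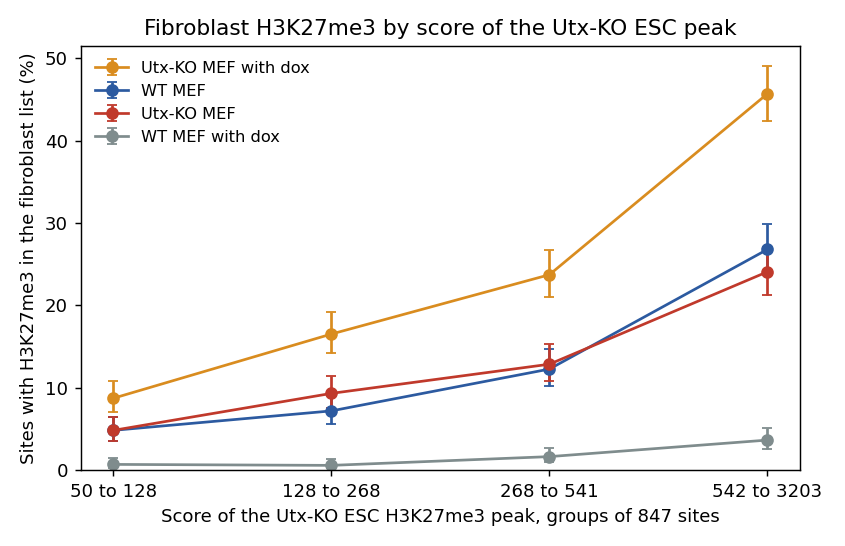
Share of gained sites with H3K27me3 in each of 4 fibroblast lists (%, vertical, 95% Wilson intervals) by score of the Utx-KO ESC H3K27me3 peak, in groups of 847 sites. In Utx-KO MEF with dox the share goes from 8.74% to 45.7%, and in MEF with dox it stays at or below 3.66%.

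Among the 20 sites with H3K27me3 in all 4 fibroblast lists, the one with the highest Utx-KO ESC score was chr4:21615094-21616924, 62 bp from WT ESC H3K27me3. Its H3K27me3 scores were 2469 in Utx-KO ESC, 785 in MEF, 340 in Utx-KO MEF, 89.8 in MEF with dox and 656.5 in Utx-KO MEF with dox. H3K4me3 was listed there in no untreated fibroblast list, with dox in MEF (697) and in Utx-KO MEF (405), and in the clones (1206 and 1111). At chr8:12384484-12386748 the fibroblast H3K27me3 scores in the same order were 514, 236, 61.3 and 1523, and at chr5:98613963-98616017 they were 572, 140, 51.1 and 1060. In each of these the MEF with dox score was the lowest. That list scored low as a whole, with 2.35% of its peaks at 100 or more, against 89.7% in MEF. A weaker mark at these sites cannot be read from the scores. The site at chr4:153513443-153515270 lay 17599 bp from WT ESC H3K27me3 and had 162, 239, 63.5 and 725. At chr19:16946515-16948349 the scores were 630, 186, 65.5 and 1186, with H3K4me3 at 1193 in MEF with dox and 111 in Utx-KO MEF with dox.

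H3K4me3 was listed in untreated fibroblasts at about as many gained sites as not, and more often with dox. It was found in MEF at 1806 (53.3%, 51.6% to 55.0%, all peaks 60.4%) and in Utx-KO MEF at 1875 (55.3%, all peaks 61.6%). H3K4me3-only sites had 63.3% and 64.3%, and doubly marked sites 47.4% and 47.9%. The lower share at gained sites turned over when H3K4me3-only sites were reweighted to the widths of the gained sites: the difference in MEF went from -9.99 to 2.43 percentage points, and in Utx-KO MEF from -8.95 to 3.11. Other settings moved it the opposite way, to -21.6 and -19.5 with peaks scoring at least 100 and to -16.0 and -15.3 with an overlap of 50% of the shorter peak. Both of these settings also changed which sites counted as gained or doubly marked, and left 2768 and 2778 gained sites. By width, MEF H3K4me3 was at 34.3% of gained and 16.9% of H3K4me3-only sites in the narrowest class, 51.1% and 52.5% in the next, then 73.3% and 83.0%, and 79.7% and 89.3% in the widest.

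With dox, H3K4me3 was listed at 2934 gained sites in MEF (86.6%, 85.4% to 87.7%, all peaks 76.2%) and at 2613 in Utx-KO MEF (77.1%, 75.7% to 78.5%, all peaks 71.5%). H3K4me3-only sites stood lower, at 72.3% and 69.4%, and doubly marked sites higher, at 91.9% and 79.8%. The differences from H3K4me3-only sites, 14.3 and 7.73 percentage points, were 24.0 and 18.3 at matched widths, and 8.69 and 0.144 with peaks scoring at least 100. The dox lists cover more of the genome (52.0 and 52.8 Mb) than the untreated ones (23.6 and 22.3 Mb), and the part of this in the higher shares was not tested. Nearly every gained site with H3K4me3 in MEF had it with dox (1795 of 1806, 99.4%), and 1139 had it with dox only. Of all WT ESC H3K4me3 peaks listed in MEF, 99.6% were listed with dox, so this is not particular to gained sites. In Utx-KO cells 1866 of 1875 (99.5%, all peaks 99.5%) had it with dox and 747 with dox only. Of gained sites listed with dox, 61.2% in MEF and 71.4% in Utx-KO MEF were listed without it too (all peaks 79.0% and 85.8%).

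**Figure D5:**
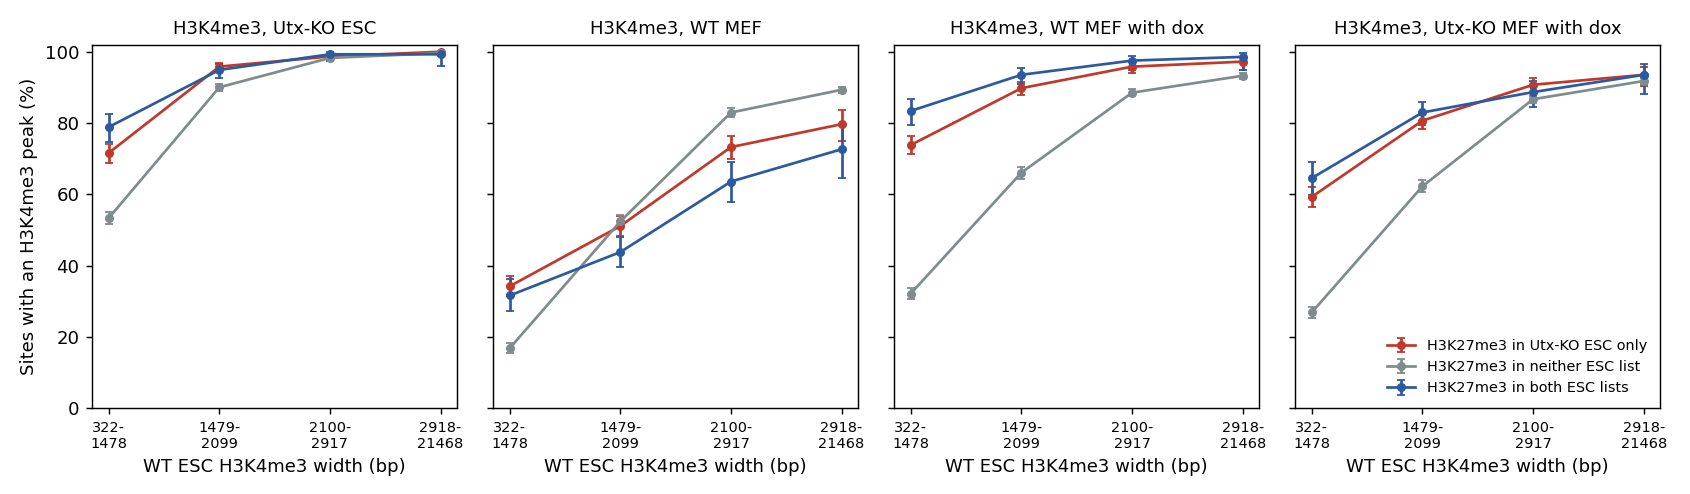
Share of sites with an H3K4me3 peak (%, vertical, 95% Wilson intervals) by class of WT ESC H3K4me3 width (bp) in 4 lists, for gained, H3K4me3-only and doubly marked sites. In MEF the gained sites stand above the H3K4me3-only sites in the narrowest class (34.3% against 16.9%) and below them in the widest (79.7% against 89.3%).

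The pairing of marks at gained sites differed between fibroblast states. In MEF 103 gained sites (3.04%) had both marks, 330 H3K27me3 alone and 1703 H3K4me3 alone, and H3K4me3 was listed at 23.8% of the sites with H3K27me3 and 57.6% of those without. Utx-KO MEF had 109 sites (3.22%) with both marks, and 25.2% against 59.8%. In Utx-KO MEF with dox 611 sites (18.0%, 16.8% to 19.4%) had both marks, and H3K4me3 was about as frequent with H3K27me3 (76.2%) as without (77.4%). In MEF with dox 53 sites (1.56%) had both, and H3K4me3 was listed at 94.6% of the 56 sites with H3K27me3 and 86.5% of those without. Most gained sites with H3K27me3 thus lacked H3K4me3 in untreated fibroblasts of either genotype, and most had it in dox-treated fibroblasts of either genotype. The same held at H3K4me3-only and doubly marked sites, so it is not particular to gained sites. In MEF 52 H3K4me3-only sites had both marks and 111 H3K27me3 alone, and in MEF with dox 39 and 1. Doubly marked sites had 84 and 280 in MEF, and 53 and 6 in MEF with dox. Utx-KO MEF with dox had 151 and 71 at H3K4me3-only and 500 and 168 at doubly marked sites. The dox H3K4me3 lists cover more of the genome, and the part of this was not tested. Both marks were at 0.353%, 0.313%, 0.265% and 1.03% of H3K4me3-only sites in MEF, Utx-KO MEF, MEF with dox and Utx-KO MEF with dox. At doubly marked sites the shares were higher than at gained sites, at 6.31%, 6.84%, 3.98% and 37.6% in the same order.

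Of the gained sites with H3K4me3 in dox-treated cells, 2576 had it in both genotypes, 358 in WT only and 37 in Utx-KO only. Over all WT ESC H3K4me3 peaks the counts were 13699, 1130 and 213, so the excess of WT-only sites is not particular to gained sites. The shared sites made up 87.8% of the gained sites of the WT list (all peaks 92.4%). Of those in the Utx-KO list they made up 98.6% (all peaks 98.5%). Utx-KO MEF with dox had H3K27me3 at 151 of the 358 WT-only sites (42.2%, 37.2% to 47.4%) and at 604 of the 2576 shared sites (23.4%, 21.9% to 25.1%). The same order was seen at H3K4me3-only sites (47 of 595, 7.90%, and 1.49%) and at doubly marked sites (130 of 174, 74.7%, and 47.3%).

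The aberrant clones had H3K4me3 at almost all gained sites and H3K27me3 at almost none. Clone 1 had H3K4me3 at 3168 (93.5%, all peaks 84.4%) and clone 2 at 3338 (98.5%, all peaks 92.6%), a mean of 96.0% ± 3.55 (SD, n = 2), and 3166 sites were shared. The means were 85.8% ± 6.70 at H3K4me3-only and 98.9% ± 1.17 at doubly marked sites, and each clone kept the order of the 3 classes. The difference of 10.2 percentage points from H3K4me3-only sites was 15.5 at matched widths and 5.83 with peaks scoring at least 100. H3K27me3 was listed at 4 gained sites in clone 1 (0.118%, all peaks 0.0514%) and 8 in clone 2 (0.236%, all peaks 0.108%), from lists of only 135 and 737 peaks.

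H3K4me3 in all 7 other lists was seen at 1513 gained sites (44.7%), 60.4% of H3K4me3-only and 37.3% of doubly marked sites. It was in no other list at 26 gained sites (0.767%), 5.50% of H3K4me3-only and 0.0751% of doubly marked sites. On the X chromosome, which carries Utx and is present in a single copy in these cells, lay 56 gained sites (1.65%, 1.28% to 2.14%), 495 H3K4me3-only sites (3.36%, 3.08% to 3.67%) and 2 doubly marked sites (0.150%, 0.0412% to 0.546%), with 2.85% of all WT ESC H3K4me3 peaks on it.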

How the data were processed

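The data are 19 peak lists, 1 per immunoprecipitated sample, in which the authors deposited a score for every peak. Tools are CASAVA 1.8.2, Bowtie 0.12.5 and MACS 1.4.1 with build mm9, per the submitters' processing notes. Settings and controls: not given in the sources used here. In its values the deposited score is like -10 log10 of a probability, with a lowest value of 50, and piled up at 3100. Read totals were not used, and 8 whole-cell extracts were not analysed here. Of the peaks, 1 mitochondrial peak was left out. Peaks were matched by an overlap of at least 1 bp, in 1-based positions. Shares have Wilson 95% intervals and no difference was tested. The overlap code was tested on simulated data (400 of 400 planted overlaps among 3000 sites recovered) and gave the same counts as bedtools 2.31.1 for 18 of 18 lists. The sites and lists were chosen with earlier results of these data known. Named sites are the 10 with the highest Utx-KO ESC H3K27me3 score, the 5 widest, the 5 with the best UTX score, the 5 with H3K27me3 in most fibroblast lists, the 5 strongest without Utx-KO ESC H3K4me3, and those nearest to the rule's edges. The text gives a selection. Gene lists and marker genes were planned only for the case of an mm9 annotation. Alternatives were a minimum score of 100, an overlap of 50% of the shorter peak, no WT ESC H3K27me3 within 2500 bp, ESC H3K27me3 lists of equal length, autosomes only, H3K4me3-only sites reweighted to the widths of the gained sites in 20 classes, and each iPS clone on its own. Reweighting by width and score together (10 by 5 classes) and asking for 50% coverage were chosen after seeing the data. Python 3.11.15 ran the code, with scipy 1.17.1 for intervals, pandas 2.3.3 and numpy 2.4.6 for tables, and matplotlib 3.10.9 for figures.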

Additional observations from a re-analysis of the deposited data

How the results depend on the processing

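Differences below are gained minus H3K4me3-only sites in percentage points. All settings except the reweighting and the single clones also change which sites count as gained. Of 117 alternative values for 15 results, 57 stayed close to the value reported, 54 moved without a change of sign and 6 changed sign. Each iPS clone on its own gave 7.94 to 12.4 for iPS H3K4me3 and 0.104 to 0.182 for iPS H3K27me3. No paired analysis was possible because no result comes from a test, and the within-clone differences are the values just given.

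With peaks scoring at least 100, where 17.6% of WT ESC H3K27me3 peaks are left, retention of H3K4me3 in Utx-KO ESC turned to -1.58 and H3K27me3 in MEF with dox to -0.00811, with 0 gained sites listed. Chromosome X moved to -2.38, median width to -595 bp and UTX to -2.37, with 26.6% of WT ESC UTX peaks left. For H3K27me3 the values were 15.1 in MEF, 15.0 in Utx-KO MEF and 19.1 in Utx-KO MEF with dox. H3K4me3 moved to -21.6 in MEF, -19.5 in Utx-KO MEF, 8.69 and 0.144 in these with dox, and 5.83 in the clones, and clone H3K27me3 to 0.0800. The highest H3K27me3 score of clone 1 is 93.2, so that clone had no H3K27me3 peak left in this mean.

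With an overlap of 50% of the shorter peak, median width was -584 bp, chromosome X -2.34, UTX -5.52, H3K27me3 9.80 in MEF and 27.1 in Utx-KO MEF with dox, and H3K4me3 -16.0, -15.3, 12.7 and 4.37 in MEF, Utx-KO MEF, MEF with dox and Utx-KO MEF with dox. Without WT ESC H3K27me3 within 2500 bp, H3K27me3 was 9.72, 10.3 and 19.4 in MEF, Utx-KO MEF and Utx-KO MEF with dox.

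With ESC H3K27me3 lists of equal length 1538 sites were left. Chromosome X was -2.54, H3K27me3 19.0, 17.6, 2.48 and 33.5 in MEF, Utx-KO MEF, MEF with dox and Utx-KO MEF with dox, H3K4me3 -13.3, -13.1 and 16.4 in the first 3 of these, and clone H3K27me3 0.289.

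At matched widths, H3K4me3 in MEF turned to 2.43 and in Utx-KO MEF to 3.11. Retention was 7.49, UTX -5.59, and H3K4me3 24.0 and 18.3 in these with dox, and 15.5 in the clones. Matching width and score gave 8.02, 8.52, 27.5 and 22.4 for H3K4me3 in the 4 fibroblast lists in the same order, 7.05 for retention and 16.4 for the clones.

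At gained sites covered over at least 50%, median width was -651 bp, chromosome X -2.36, retention 0.819, UTX -7.16, H3K27me3 14.6, 15.0 and 27.8 in MEF, Utx-KO MEF and Utx-KO MEF with dox, and H3K4me3 -17.3, -16.8, 12.5 and 3.92 in the fibroblast lists. The cause of the turned and moved values was not tested beyond these settings. Unknown read depth, and 1 library per state and mark outside the clones, limit every comparison of lists.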
